A study of Mus musculus with 6 samples.

Results

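The genes described here make up the Fanconi anaemia pathway, the homologous recombination machinery that works with it, and the kinases of the DNA damage checkpoint. They were chosen by symbol from what the encoded proteins do, with earlier results of these data known. All 38 were listed among the 25033 gene symbols of the series, and all 38 passed the filter on low counts, which left 12978 genes for testing. GFP+ HSCs (haematopoietic stem cells) had been sorted from marrow, labelled C57BL/6J and 6 months of age. The mice had received HSCs treated with a control RNA (3 libraries) or with a miR-31-5p inhibitor (3 libraries), and mRNA was sequenced. The labels do not say what carried the GFP, whether the age is that of donors or recipients, how long after transfer the cells were sorted, or whether replicate libraries stem from different mice. The p-values below therefore measure the spread between these libraries, which may be technical.

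Stem cells of the marrow depend on this pathway, as is known from Fanconi anaemia, an inherited marrow failure in which blood stem cells are lost. A core complex puts ubiquitin on the FANCD2 and FANCI pair at a DNA crosslink, nucleases then cut the crosslink free, and the resulting break is repaired by homologous recombination, in which the resected end invades the sister DNA and copies it. ATR with CHK1 and ATM with CHK2 signal the damage and hold the cell cycle. Many of these genes are transcribed mainly in S phase, so their mRNA in a mixed population also follows how many cells are dividing.

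Libraries held 16873188 to 21245861 counts. A single library held 79 to 2498 counts for any of the 38 genes, and together they took 0.147 to 0.163% of the counts. Control library 1 stood apart: it was the lowest of the controls for 20 of the 38 genes and for 7 of the 10 with the longest transcripts. The ribosomal precursor RNA Rn45s varied most among controls, with 20039, 3667 and 61656 counts, against 1784 to 3145 counts with the inhibitor. Of the markers that define HSCs, Hoxb5 had no count in any library and the control means of Procr and Mecom were 1.06 and 0.64 CPM (counts scaled to library size with TMM factors), against 401.9 CPM for Kit and 5202 CPM for the myeloid progenitor gene Mpo. The summed level of 11 HSC markers was 797 to 849 CPM in controls and 864 to 902 CPM with the inhibitor. Kit was a large part of this sum, while the median of the tested HSC markers was 7.64 CPM in controls. The sum is therefore not a measure of HSC content. These markers moved both ways: of the 9 tested, 4 were higher and 2 lower, with log2 changes from -0.92 to 2.82. The summed level of 10 myeloid markers was 9671 to 10438 CPM in controls and 7497 to 7686 CPM in inhibitor libraries, with Mpo its largest part; 6 of the 10 were lower and 3, S100a8, S100a9 and Ltf, higher. The 6 megakaryocyte markers summed to 1347 to 1538 and 3038 to 3143 CPM, 8 erythroid markers to 5.74 to 7.25 and 18.5 to 21.03 CPM, and 7 B cell markers to 17.3 to 18.8 and 10.1 to 10.8 CPM, each without overlap. Only 5 of the erythroid markers were tested: 4 were higher, and 1 had a negative change that did not pass (-1.38). Of the B cell markers 2 were tested, and both were lower. The part of these shifts in the results below was not tested. In such bulk samples, fewer cells of a type and less RNA per cell cannot be told apart.

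The comparison asked how transcripts of the pathway differed between recipients of inhibitor-treated and control HSCs. The genes moved in both directions and by small amounts. The recombination genes Rad54l, Xrcc2, Palb2, Blm and Eme1 fell by 23.6 to 28.3%, while Chek2, Rad51d and Brca2 rose by 20.3 to 23.6%. The rises of Rad51d and Brca2, unlike that of Chek2 and unlike these falls, did not pass after a correction for transcript length. Transcripts of the Fanconi core complex and of the FANCD2 and FANCI pair mostly did not pass the test. In all, 10 of the 38 were lower and 4 higher at an adjusted p of 0.05 by quasi-likelihood in edgeR, adjusted by Benjamini-Hochberg over all 12978 genes and called edgeR's adjusted p from here on.

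These 14 genes are 36.8% of the 38, against 40.5% of all tested genes that passed, so the share called was near the background. By direction, 26.3% were lower against 20.1% of all genes, and 10.5% were higher against 20.4%. The median log2 change (inhibitor against control) was -0.09, with a range of -0.51 to 0.31, and that of all tested genes was -0.01. For 19 of the 38 genes (50%) the inhibitor libraries all lay on one side of the controls, against 52.4% of all genes. They were below in 13 and above in 6, against 26.5% and 25.9% of all genes. The count of 14 fell to 9 without inhibitor library 2 (7 lower, 2 higher) and to 9 without control libraries 1 and 3 together (7 lower, 2 higher). It was 13 without control library 1 (10 lower, 3 higher). After a correction for transcript length 14 were lower and 2 higher. The direction of each of the 14 was the same under all 14 alternatives (other scaling, filters, tools, libraries left out, length), and 7 passed the threshold under every one of them: Rad54l, Xrcc2, Palb2, Eme1, Blm, Rad51ap1 and Chek2.

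**Figure D1:**
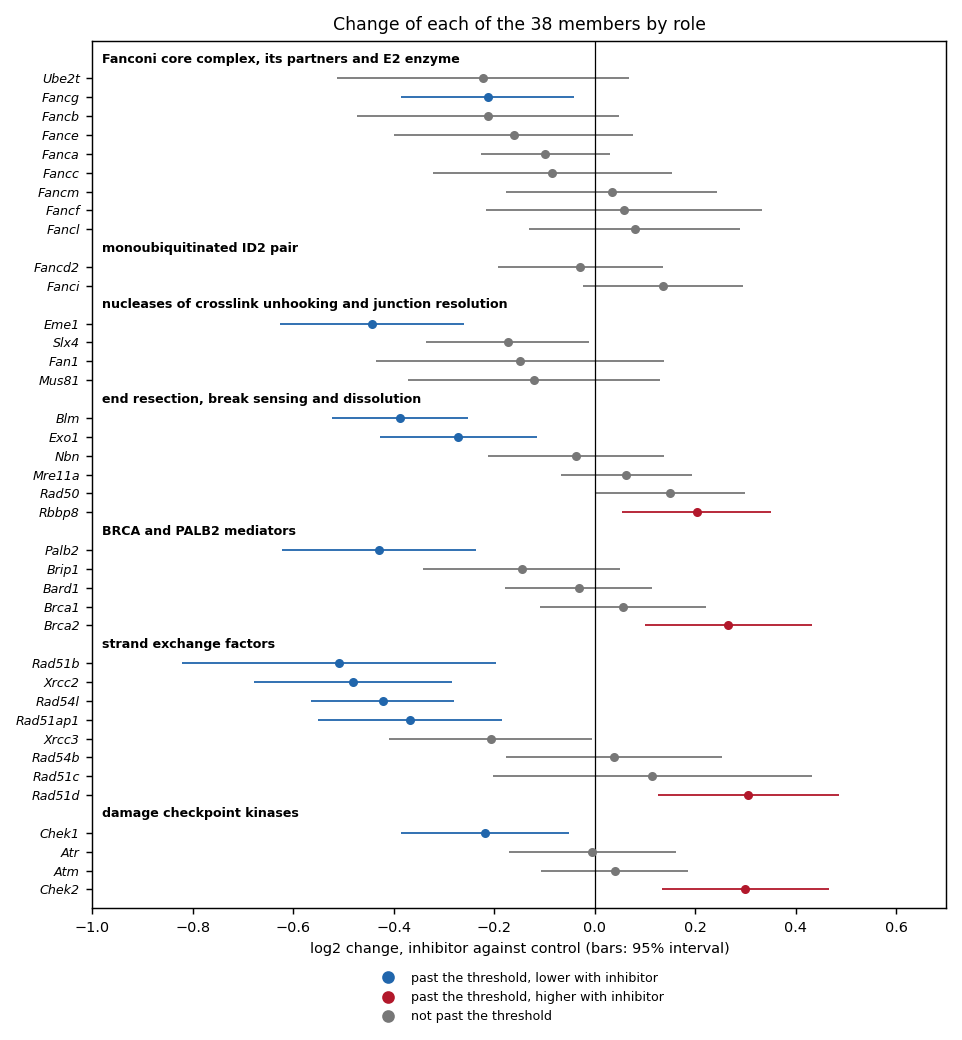
Log2 change of each of the 38 genes, grouped by role (points; bars are 95% intervals from edgeR's quasi-likelihood fit, 3 control and 3 inhibitor libraries). Blue and red points passed an adjusted p of 0.05; the 10 blue ones lie between -0.51 and -0.21 and the 4 red ones between 0.20 and 0.31.

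The genes of strand exchange held the largest changes. Their products help a resected DNA end to pair with its intact copy. Xrcc2, a subunit of the complex of RAD51B, RAD51C, RAD51D and XRCC2 (mm10 chromosome 5, 25689814 to 25705797), was at 23.1, 23.5 and 22.1 CPM in the controls, given in the order of their numbers here and below, and at 16.1, 16.6 and 16.6 CPM with the inhibitor. The inhibitor libraries lay close together and all below the controls. The log2 change was -0.48 ± 0.09 (± SE; edgeR's adjusted p = 0.000743). Rad51b, of the same complex, was low in all libraries, at 7.23, 7.45 and 6.86 CPM in controls and 5.08, 4.61 and 5.44 CPM with the inhibitor. Its change of -0.51 ± 0.15 (edgeR's adjusted p = 0.0122) rested on 79 to 149 counts per library. The call was lost without inhibitor library 2 (-0.45, edgeR's adjusted p = 0.0537, range over its alternatives 0.0111 to 0.0537) and with control library 2 as the only control (-0.57, edgeR's adjusted p = 0.0508).

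Rad51d, which encodes another subunit of that complex (chromosome 11, 82871960 to 82890624), moved the other way. It was at 30.2, 34.1 and 29.7 CPM in controls and 38.8, 36.4 and 40.9 CPM with the inhibitor, without overlap. The change was 0.31 ± 0.08 (edgeR's adjusted p = 0.00934), or 0.18 (edgeR's adjusted p = 0.209, range over its alternatives 0.00388 to 0.209) when control library 2 was the only control kept and 0.20 (edgeR's adjusted p = 0.0602) after the length correction. The remaining subunit, Rad51c, did not pass (0.11 ± 0.15, 95% interval -0.20 to 0.43). Xrcc3, which pairs with RAD51C in a second complex, was at 24.1 to 25.2 CPM in controls and 19.5 to 23.5 CPM with the inhibitor, and also did not pass (-0.21 ± 0.10, edgeR's adjusted p = 0.0944).

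Rad54l encodes RAD54, a motor protein that works during strand exchange (chromosome 4, 116094261 to 116123700). It had the smallest p of the 38 genes. Its level was 58.4, 59.9 and 62.7 CPM in controls and 45.8, 43.2 and 46.0 CPM with the inhibitor, a change of -0.42 ± 0.07 (edgeR's adjusted p = 0.000133). The inhibitor libraries lay below all controls with a gap wider than the range of either group. Rad51ap1, which encodes a protein that stimulates strand exchange (chromosome 6, 126923415 to 126939621), was at 49.3, 44.2 and 42.7 CPM and at 38.2, 35.4 and 31.8 CPM, and fell by 0.37 ± 0.09 on the log2 scale (edgeR's adjusted p = 0.00321). Rad54b, a relative of Rad54l, was at 17.7 to 18.3 CPM in controls and 16.7 to 19.97 CPM with the inhibitor (0.04 ± 0.10). Its interval of -0.18 to 0.25 lay above that of Rad54l (-0.56 to -0.28).

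The BRCA mediators split in the same manner. PALB2 bridges BRCA1 and BRCA2 at a break. Palb2 (chromosome 7, 122107262 to 122132980) was at 25.5, 26.8 and 27.3 CPM in controls and 20.95, 19.3 and 18.8 CPM with the inhibitor. It fell by 0.43 ± 0.09 (log2, edgeR's adjusted p = 0.00156), with no overlap. Brca2 (chromosome 5, 150522297 to 150570147), by contrast, was at 54.1, 62.5 and 68.2 CPM in controls and 71.8, 76.9 and 73.6 CPM with the inhibitor. The controls were spread more widely than the inhibitor libraries, with control library 1 lowest, and the change was 0.27 ± 0.08 (edgeR's adjusted p = 0.0132). This call was lost without inhibitor library 2 (0.24, edgeR's adjusted p = 0.0663, range over its alternatives 0.00222 to 0.168) and after the length correction (0.10, edgeR's adjusted p = 0.168).

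Brca1 and Bard1, whose products form a ubiquitin ligase, showed no change past the threshold. Brca1 was at 74.8, 89.2 and 90.3 CPM in controls and 81.2, 90.4 and 92.9 CPM with the inhibitor (0.06 ± 0.08), so that the groups overlapped. Bard1 lay at 45.3 to 46.0 and 43.5 to 46.6 CPM (-0.03 ± 0.07, interval -0.18 to 0.11). Brip1, the helicase FANCJ that binds BRCA1, was at 44.9, 52.8 and 60.8 CPM in controls and 47.6 to 48.0 CPM with the inhibitor. Its change did not pass (-0.15 ± 0.09), but it did without control library 1 (-0.25, edgeR's adjusted p = 0.00269, range over its alternatives 0.00269 to 0.842) and after the length correction (-0.25, edgeR's adjusted p = 0.0115).

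**Figure D2:**
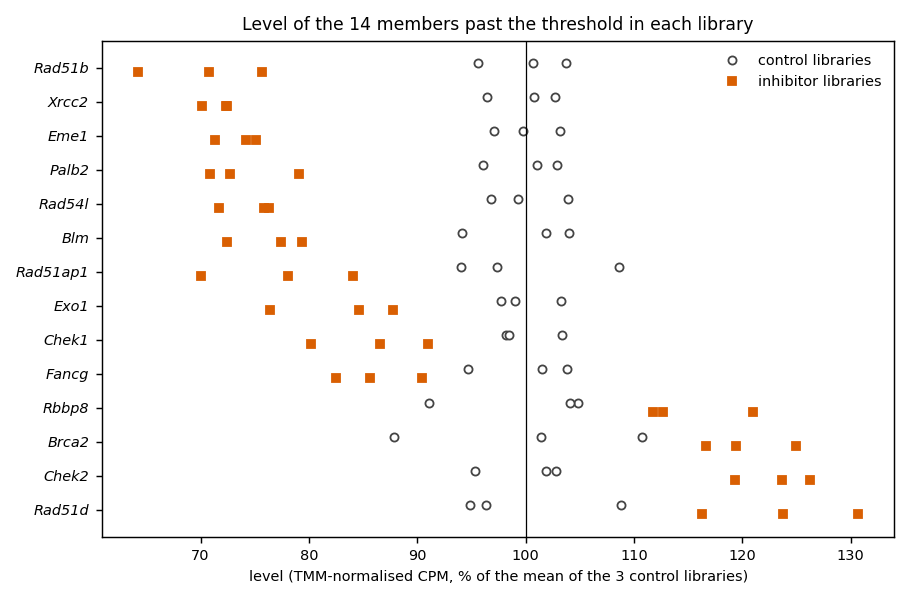
Level of the 14 genes past the threshold in each library, as a percentage of the mean of the 3 control libraries (TMM-normalised CPM; open circles, control libraries; filled squares, inhibitor libraries). The groups did not overlap for any of the 14; the gap was widest for Xrcc2 and Eme1 and narrow for Fancg, Rbbp8 and Brca2.

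Genes of break sensing, resection and dissolution gave 2 falls and 1 rise among 6 genes (50% called, against 40.5% of all tested genes). Blm, the helicase mutated in Bloom syndrome, which dissolves joint DNA molecules (chromosome 7, 80454993 to 80535148), was at 90.6, 100.2 and 98.2 CPM in controls and 69.8, 76.5 and 74.6 CPM with the inhibitor. It fell by 0.39 ± 0.06 on the log2 scale (edgeR's adjusted p = 0.000187). Exo1, the nuclease of long-range resection, was at 49.7, 50.3 and 52.5 CPM and at 38.8, 43.0 and 44.6 CPM. Its fall of 0.27 ± 0.07 (log2, edgeR's adjusted p = 0.00822) did not pass without inhibitor library 1, where the change was -0.21 (edgeR's adjusted p = 0.0572, range over its alternatives 0.000476 to 0.0572). For both genes every inhibitor library lay below every control.

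Rbbp8 encodes CtIP, which starts resection together with the complex of MRE11, RAD50 and NBS1. Rbbp8 was at 58.7, 67.6 and 67.1 CPM in controls and 72.7, 72.1 and 78.0 CPM with the inhibitor, a rise of 0.20 ± 0.07 (edgeR's adjusted p = 0.0295). This was the smallest called change. The call was lost without control library 1 (0.14, edgeR's adjusted p = 0.0555). It was also lost without inhibitor library 1, 2 or 3 (0.22, 0.22 and 0.17, edgeR's adjusted p = 0.0604, 0.0564 and 0.126). With control library 2 as the only control the change was 0.13. Of the complex itself, Rad50 was at 97.6, 117.9 and 117.4 CPM in controls and 119.6, 124.8 and 125.4 CPM with the inhibitor. These groups did not overlap, but the difference did not pass (0.15 ± 0.07, edgeR's adjusted p = 0.0993), except without control library 2 (0.20, edgeR's adjusted p = 0.0453, range over its alternatives 0.0442 to 0.556) and with a block for the replicate number (0.16, edgeR's adjusted p = 0.0442). Mre11a (60.8 to 64.9 and 64.9 to 65.6 CPM) and Nbn (40.4 to 49.5 and 42.1 to 43.8 CPM) did not pass either, at 0.06 ± 0.06 and -0.04 ± 0.08.

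Of the nucleases that unhook crosslinks and cut joint molecules, Eme1 fell. EME1 is the partner that MUS81 needs to cut. Eme1 (chromosome 11, 94644972 to 94653836) was at 29.4, 28.4 and 27.7 CPM in controls and 20.3, 21.4 and 21.1 CPM with the inhibitor, a change of -0.44 ± 0.09 (edgeR's adjusted p = 0.000801). Mus81 itself was at 23.8, 18.5 and 18.5 CPM and at 18.7, 16.8 and 20.3 CPM, with overlapping groups (-0.12 ± 0.12). Slx4, the scaffold that holds these nucleases, was at 38.03 to 38.9 CPM in controls and 32.0 to 35.2 CPM with the inhibitor. Its groups did not overlap, but it did not pass (-0.17 ± 0.08, edgeR's adjusted p = 0.0815), except after the length correction (-0.26, edgeR's adjusted p = 0.00921, range over its alternatives 0.00921 to 0.267). Fan1, a crosslink nuclease, was among the weakly expressed genes, at 7.53 to 8.09 and 6.60 to 7.60 CPM (-0.15 ± 0.13).

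The Fanconi core complex, its partners and its conjugating enzyme gave 9 genes. Of these, 1 passed (11.1%, against 40.5% of all tested genes) and 8 did not. Their median level in controls was 17.2 CPM, against 38.6 CPM for the 38 genes. The catalytic subunit of the complex is the ubiquitin ligase FANCL, which works with the conjugating enzyme UBE2T, while FANCM recognises the stalled fork. Of these 9 genes only Fancg passed, at 36.7, 33.5 and 35.9 CPM in controls and 32.0, 30.3 and 29.2 CPM with the inhibitor (-0.21 ± 0.08, edgeR's adjusted p = 0.0463). Fancg passed in 5 of the 14 alternatives, the fewest of the called genes. Its call was lost when any library but control library 2 was left out (changes of -0.25 to -0.18, edgeR's adjusted p = 0.0586 to 0.15), with DESeq2 (-0.21, adjusted p = 0.0697), with RLE scaling or no filter (-0.21 and -0.22), and with control library 2 as the only control (-0.14, edgeR's adjusted p = 0.389). Fanca was at 62.9, 63.5 and 64.5 CPM and at 59.8, 60.001 and 58.5 CPM, so all inhibitor libraries lay below the controls by a small margin (-0.10 ± 0.06, edgeR's adjusted p = 0.211, and 0.0406 after the length correction, range over its alternatives 0.0406 to 0.415). Ube2t had 11.3 to 12.1 CPM in controls and 8.27, 9.98 and 11.9 CPM with the inhibitor, the widest spread of any inhibitor group relative to its mean among these 9 genes (-0.22 ± 0.14). The others were Fancb (-0.21 ± 0.12), Fance (-0.16 ± 0.11), Fancc (-0.08 ± 0.11), Fancm (0.03 ± 0.10), Fancf (0.06 ± 0.13) and Fancl (0.08 ± 0.10), none past the threshold.

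Fancd2 and Fanci encode the pair to which the core complex adds ubiquitin. Fancd2 was at 49.6, 60.2 and 59.7 CPM in controls and 55.0 to 55.6 CPM with the inhibitor (-0.03 ± 0.08). Fanci was at 37.8, 39.6 and 39.4 CPM in controls and 39.95, 43.5 and 44.8 CPM with the inhibitor, without overlap, but did not pass (0.14 ± 0.07, edgeR's adjusted p = 0.161). Of all 24 genes that did not pass, 13 had a 95% interval that lay within a 1.25-fold change in either direction, so for the other 11 a change of that size was not resolved at this depth and spread.

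Among the checkpoint kinases, the transducers Chek1 and Chek2 passed in opposite directions and the apical kinases did not pass. Chek2, the target of ATM (chromosome 5, 110839800 to 110874140), was at 31.03, 28.8 and 30.7 CPM in controls and 38.1, 36.0 and 37.3 CPM with the inhibitor. It rose by 0.30 ± 0.08 (edgeR's adjusted p = 0.00659), and the 3 inhibitor libraries lay well above the controls. Chek1, the target of ATR and essential for S phase (chromosome 9, 36708482 to 36726658), was at 38.7, 38.8 and 40.7 CPM in controls and 35.8, 31.6 and 34.1 CPM with the inhibitor (-0.22 ± 0.08, edgeR's adjusted p = 0.0364). Its call was lost without control library 2 (-0.23) or 3 (-0.19), without inhibitor library 2 (-0.17) or 3 (-0.22), with control library 2 as the only control (-0.20) and with DESeq2 (-0.21), with an adjusted p over its alternatives between 0.0157 and 0.159. Atm (95.6, 113.8 and 112.9 CPM in controls, 107.4, 113.6 and 110.4 CPM with the inhibitor) and Atr (57.9, 69.8 and 67.4, and 61.6, 62.9 and 70.0 CPM) overlapped, at 0.04 ± 0.07 and -0.01 ± 0.08. Atm changed sign and passed after the length correction (-0.13, edgeR's adjusted p = 0.0397, range over its alternatives 0.0397 to 0.885).

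Because partners moved differently, the ratio of their levels within a library shifted. The pairs below were picked after the values were seen, so the ratios are a description, with no test. The ratio of Chek2 to Chek1 in CPM was 0.803, 0.742 and 0.755 in the controls and 1.06, 1.14 and 1.10 with the inhibitor, without overlap. Brca2 to Palb2 went from 2.12, 2.33 and 2.50 to 3.43, 3.99 and 3.92. Rad51d to Xrcc2 went from 1.31, 1.45 and 1.34 to 2.41, 2.197 and 2.47. In each of these pairs the first gene lay above and the second below the controls without overlap, so the ratios could not overlap and add nothing to those changes. The calls of Brca2 and Rad51d were lost after the length correction. Not all partners drew apart: the ratios of Brca1 to Bard1 (1.86 ± 0.19 and 1.98 ± 0.11, SD, n = 3 libraries each), of Mre11a to Rad50 (0.57 ± 0.06 and 0.53 ± 0.01) and of Atm to Atr (1.65 ± 0.02 and 1.71 ± 0.12) overlapped between the groups.

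Per transcript length, as the authors' RPKM (reads scaled to transcript length and library size), mean levels in controls ran from 1.73 for Rad51c to 23.3 for Rad51ap1, with a median of 8.75. Fan1 (2.15), Rad54b (3.88), Rad51b (3.93) and Fancb (4.04) were the next lowest and Rad50 (20.7), Blm (20.1) and Rad54l (18.8) the next highest. The RPKM of Atm was 8.63 and that of Brca2 5.31, so these genes, which stood high in CPM, were middling or low once their length of 11955 and 11133 bases was taken into account. Falls were found at both ends of this scale, in Rad51b as in Rad51ap1, Blm and Rad54l.

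Transcript length also moved with the change. Over all tested genes, the median log2 change was -0.12 for transcripts up to 1784 bases, -0.03 up to 2827 bases, 0.00 up to 4287 bases and 0.08 from 4288 bases, in 4 groups of about equal size. Of the 38 genes, 17 were in the longest group, with a median of 0.03, and 5 in the shortest, with a median of -0.22. Rad51d and Brca2 are in the longest group, and both calls were lost after the length correction, whereas Chek2 (2289 bases) changed by 0.32 and Rbbp8 (3462 bases) by 0.18 with it, both still past the threshold. Exo1 and Blm, which are also in the longest group, fell by 0.35 and 0.45 on the log2 scale after the correction.

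**Figure D3:**
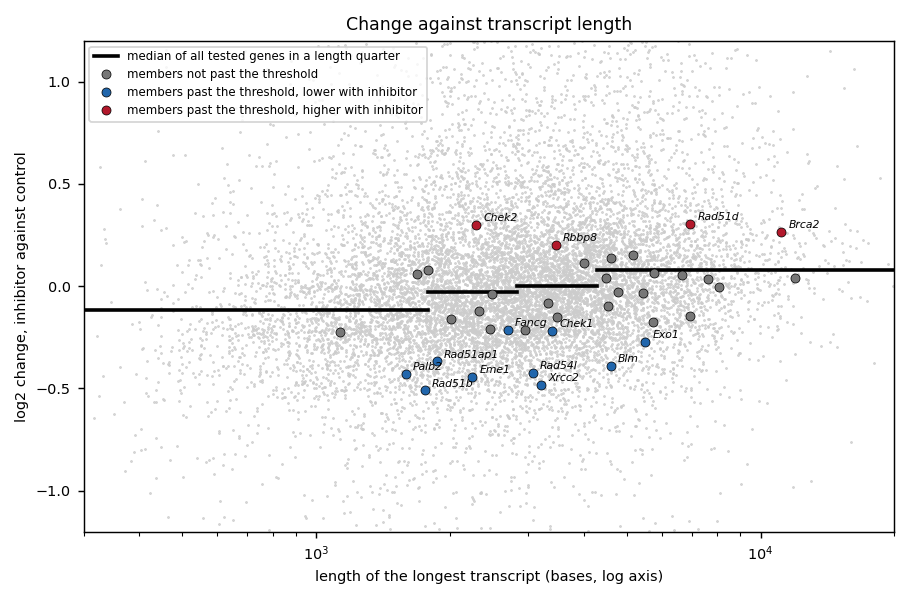
Log2 change against the length of the longest transcript (log axis) for all tested genes (grey; 626 of the 12978 lie outside the axes) and the 38 genes of the pathway. Black lines are medians of all tested genes in each of the 4 length groups, which rise from -0.12 to 0.08.

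Other genes of these pathways were taken from lists of known function. Of 44 other Fanconi and recombination genes tested, 12 were lower, 2 higher and 30 not past the threshold, with a median of -0.11. These are 31.8% called, under the 40.5% of all tested genes (27.3% lower against 20.1%, and 4.55% higher against 20.4%). The falls included the dissolution enzyme gene Top3a, a partner of BLM (-0.42 ± 0.07, edgeR's adjusted p = 0.000246), Rpa2 of the single-strand binding complex RPA (-0.44 ± 0.08) and the resection nuclease gene Dna2 (-0.36 ± 0.08). The rises were in the crosslink nuclease gene Ercc4 (0.25 ± 0.09) and in Brcc3 (0.20 ± 0.08). They numbered 1 without control library 1 or 3 or inhibitor library 1 or 3, and neither passed without inhibitor library 2 or with control library 2 as the only control. Of 31 other checkpoint and break signalling genes, 13 were lower and 4 higher (54.8% called, 41.9% lower and 12.9% higher; median -0.11). Cdc25a, the phosphatase that CHK1 marks for degradation (-0.56 ± 0.06), H2afx (-0.57 ± 0.07), the kinase gene Wee1 (-0.53 ± 0.08) and Clspn, the adaptor between ATR and CHK1 (-0.35 ± 0.06), fell, while Tlk1 (0.53 ± 0.06) and Trp53bp1, which favours end joining over resection (0.26 ± 0.06), rose. The p53 target genes Cdkn1a, a cell cycle inhibitor (1.21 ± 0.06), and Mdm2 (0.51 ± 0.06) also rose. Trp53, which encodes p53, was itself lower (-0.15 ± 0.06, edgeR's adjusted p = 0.0477), and the p53 target gene Ppm1d did not pass (-0.10 ± 0.09). Whether p53 activity differed was not tested.

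S phase genes were lower in the same libraries. Of the 33 tested, 25 fell (75.8%, against 20.1% of all tested genes lower), and the median over all 33 was -0.30. They included Cdc6, which loads the replicative helicase (-0.59 ± 0.06), and Uhrf1, which keeps DNA methylation through replication (-0.48 ± 0.06). Of the 26 tested for G2 and mitosis 10 fell (38.5%), at a median of -0.12. The number was 18 without control library 1 and 6 without control library 3. The mean level of the S phase genes, centred over libraries on the log2 scale, was 0.13 to 0.19 in controls and -0.16 to -0.13 with the inhibitor, and that of the 38 genes was 0.01, 0.07 and 0.05 in the controls and -0.06, -0.06 and -0.02 with the inhibitor. The part of this shift in the falls of Rad54l, Xrcc2, Palb2, Eme1 and Blm was not tested. The changes of these genes were -0.48 to -0.39, and those of the S phase genes -0.59 to -0.08. The former were named because they fell, so setting the ranges side by side is a description only.

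**Figure D4:**
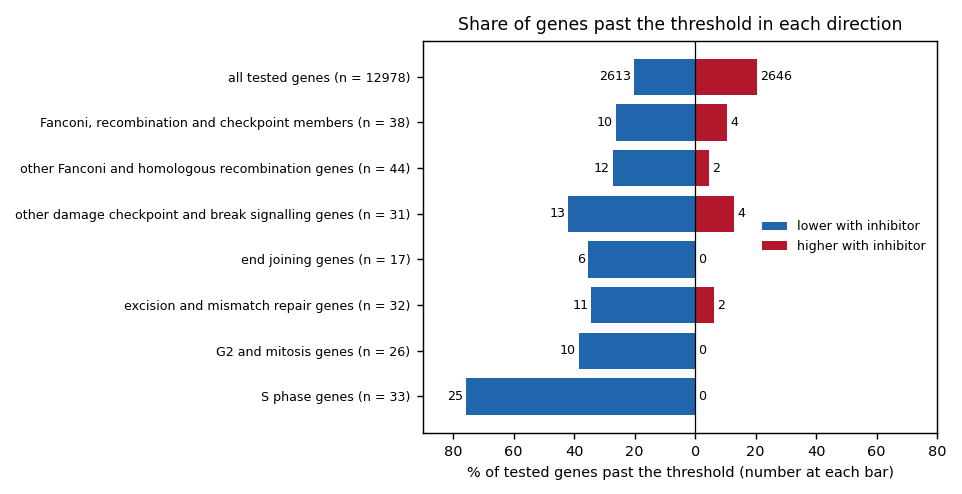
Share of tested genes past the threshold (edgeR's adjusted p of 0.05) in each direction, for all tested genes, the 38 genes described here and other lists (numbers of genes at the bars). For the 38 genes 10 were lower and 4 higher; for S phase genes 25 of 33 were lower.

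Promoters were searched for letters bound by E2F factors, which drive S phase genes. RefSeq promoter windows (GRCm38.p6, the build mm10 is named for; 250 bases before to 50 after the start) were matched by symbol for 30 of the 38 genes. The E2F letters were TTTCCCGC, TTTCGCGC, TTTGCCGC and TTTGGCGC on either strand, which can overlap one another. They were in 5 of the 30 genes (16.7%), in 2.26% of all 32851 windows, in 4.65% of tested genes and in 11 of 26 S phase genes (42.3%). The cell cycle homology letters TTTGAA, found in promoters of G2 and mitosis genes, were in 3 of the 30 (10%), in 17.9% of all windows, in 14.5% of tested genes and in 17 of 23 genes of G2 and mitosis (73.9%). The 3 were Bard1, which did not pass, and Eme1 and Rad51b, 2 of the 8 matched genes that fell (25%). The 5 with E2F letters were Brca2, Chek2, Fancg, Bard1 and Rad51c, of which 2 rose, 1 fell and 2 were not past the threshold. The windows of Rad54l, Palb2, Eme1, Blm, Rad51ap1, Chek1 and Rad51b, which fell, held none of these 4 strings. Other forms of the E2F site were not sought, so these windows cannot be said to lack one.

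The windows of 4 of these genes are printed 5′ to 3′ on the strand of the gene, with the matched E2F letters in capitals (for Brca2 and Chek2 they read on the opposite strand). They are shown because they hold the same letters in genes that rose, fell and did not pass. They lie at chr5:150522371-150522670 (Brca2, plus strand), chr5:110839733-110840032 (Chek2, plus strand), chr4:43010252-43010551 (Fancg, minus strand) and chr1:71102923-71103222 (Bard1, minus strand).
Brca2, higher: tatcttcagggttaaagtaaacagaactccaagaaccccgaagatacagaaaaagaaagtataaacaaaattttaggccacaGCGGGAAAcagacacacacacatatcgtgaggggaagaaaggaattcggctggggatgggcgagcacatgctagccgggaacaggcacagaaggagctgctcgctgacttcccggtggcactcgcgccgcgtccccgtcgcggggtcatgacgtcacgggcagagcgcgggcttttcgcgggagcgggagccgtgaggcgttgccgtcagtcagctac
Chek2, higher: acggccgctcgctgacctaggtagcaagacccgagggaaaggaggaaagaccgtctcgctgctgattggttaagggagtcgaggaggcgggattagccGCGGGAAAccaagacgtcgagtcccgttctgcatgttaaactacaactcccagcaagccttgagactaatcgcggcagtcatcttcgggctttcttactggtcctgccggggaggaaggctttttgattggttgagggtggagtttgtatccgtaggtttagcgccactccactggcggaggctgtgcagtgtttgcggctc
Fancg, lower: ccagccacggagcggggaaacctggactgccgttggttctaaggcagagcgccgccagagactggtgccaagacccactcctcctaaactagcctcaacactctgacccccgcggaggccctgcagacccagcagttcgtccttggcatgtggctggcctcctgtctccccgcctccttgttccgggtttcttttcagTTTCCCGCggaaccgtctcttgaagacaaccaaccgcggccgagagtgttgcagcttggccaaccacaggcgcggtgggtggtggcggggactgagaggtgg
Bard1, not past the threshold: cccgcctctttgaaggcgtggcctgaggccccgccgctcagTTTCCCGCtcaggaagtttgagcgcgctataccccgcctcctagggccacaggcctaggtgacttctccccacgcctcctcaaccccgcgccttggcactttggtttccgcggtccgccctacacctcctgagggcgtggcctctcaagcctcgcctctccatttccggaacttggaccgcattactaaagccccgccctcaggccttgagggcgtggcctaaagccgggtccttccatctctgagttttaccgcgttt

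The inhibitor was aimed at miR-31-5p, whose mature sequence in RefSeq (GRCm38.p6, chr4:88910614-88910635, minus strand) is printed with its seed, bases 2 to 8, in capitals.
mmu-miR-31-5p: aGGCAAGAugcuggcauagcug
The match to this seed, TCTTGCC, was sought in the longest 3′ untranslated region of each gene in GENCODE release M21. It was in 3 of the 37 of these genes that had one (8.11%) and in 1707 of 12336 tested genes (13.8%). With the shifted match CTTGCCA counted as well, 8 of the 37 (21.6%) and 2768 of the 12336 (22.4%) had a match, so the shares were near each other. Genes with CTTGCCA alone are not named here. The 3 with TCTTGCC were Bard1, with 2 matches, Slx4 and Eme1. Their sites are shown on the strand of the gene, with the match in capitals, at chr1:71029721-71029750 and chr1:71028380-71028409 (Bard1), chr16:3991629-3991658 (Slx4) and chr11:94645126-94645155 (Eme1), all on the minus strand. The first site of Bard1 and that of Slx4 go on with A, which makes an 8-letter match.
Bard1, first site: ctgcttagaatgTCTTGCCagtttagaaca
Bard1, second site: tacgttttaatcTCTTGCCtcacctcctct
Slx4: caccccaccactTCTTGCCagcaagatttc
Eme1: gtcagagtgaacTCTTGCCtgcgggttggc
None of the 3 was higher with the inhibitor: Bard1 was at -0.03 ± 0.07 and Slx4 at -0.17 ± 0.08, neither past the threshold in edgeR (Slx4 passed as lower after the length correction), and Eme1 fell. A match is a description of letters, not evidence of binding.

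Exons of 18 of the 38 genes overlap those of another gene in GENCODE release M21, in nearly every case on the other strand, and no source used here gives the strand of counting: reads of such pairs cannot be told apart. Among the 14 called genes this holds for Rad54l (with Lrrc41), Eme1 (with Lrrc59 and Mrpl27), Palb2, Brca2 and Rbbp8 (with noncoding or predicted genes).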

How the data were processed

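Each library's file held, per the file headers, read counts per RefSeq gene symbol, the longest transcript length and RPKM values, all deposited by the authors. The counts were not normalised. RPKM was used only for levels between genes. The submitters' processing notes name mm10 and bcl2fastq 2.20. For aligner, counter and strand, the entry is: not given in the sources used here. Per-sample columns of other series numbered 0.

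Genes were kept by filterByExpr (minimum count 10, minimum total 15), given TMM factors (0.985 to 1.008), and compared by the robust quasi-likelihood F test of edgeR 4.0.16 (R 4.3.3). P-values were adjusted by Benjamini-Hochberg. Standard errors are the log2 change divided by the square root of F. Depth was 16873188 to 21245861 counts per library, so 3 counts were 0.141 to 0.178 CPM. On simulated data, 20 of 50 genes changed by 1.25-fold and 38 of 50 changed by 1.5-fold were recovered among 12978, and 16 unchanged genes were called. Far fewer genes were changed there than the 5259 called in the data. The adjusted p depends on that share, so recovery in the data may differ. Alternatives used RLE factors, other filters, DESeq2 1.42.0, limma-voom (limma 3.58.1), a replicate block, left-out libraries and a loess correction for transcript length (span 0.4, robust, centred so that TMM scaling stayed). The range of adjusted p over a gene's alternatives takes in DESeq2 and limma-voom as well as edgeR. Motifs were sought with Python 3.11.15.

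The 38 genes, the lists and the alternative without control libraries 1 and 3 were chosen with earlier results of these data known. Every one of the 38 is described. Of the other lists, up to 4 genes with the smallest p in each direction could be named, and Trp53 and Ppm1d were added. End joining and excision repair genes come at the end of the document. The result for 1 gene of these lists is not reported here.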

Additional observations from a re-analysis of the deposited data

How the results depend on the processing

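Of the 532 tests of the 38 genes under 14 alternatives, 506 had the direction of the reported fit. Of the 24 genes not past the threshold, 19 passed under none of the 14. Leaving out 1 library at a time, the number of the 38 past the threshold was 9 to 14, with 7 to 10 lower and 2 to 5 higher, and the median log2 change was -0.099 to -0.047 (the latter without inhibitor library 2); all tested genes gave 4058 to 5692. With control library 2 as the only control, whose lone value is assumed to vary like the inhibitor libraries, 9 passed, 2 of them higher, with a median of -0.13. After the length correction 2 were higher, the median was -0.13 and Atm was at -0.13 (edgeR's adjusted p = 0.0397). The correction removes any real change that follows length, and the cause of these differences was not tested. The labels do not say whether the replicate numbers pair the libraries. Correlations of same-numbered deviations were 0.06, 0.01 and 0.04. With the replicate block 15 of the 38 passed, against 14 without it, and 5673 of all genes. At an adjusted p of 0.1, 17 passed.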

Other observations

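Genes of other repair pathways, outside the 38, were called about as often as all tested genes (40.5%), with more of the calls lower. Of 17 end joining genes, 6 fell (35.3%, against 20.1% of all tested genes lower), and the median log2 change over all 17 was -0.18. They included Parp1 (-0.30 ± 0.05) and Parp2 (-0.37 ± 0.07), whose products bind DNA breaks, and Xrcc6, which encodes Ku70 (-0.35 ± 0.07, edgeR's adjusted p = 0.00146). Without control libraries 1 and 3 the number lower was 3. Of 32 excision and mismatch repair genes tested, 11 were lower (34.4%) and 2 higher (6.25%, against 20.4% of all tested genes), 40.6% called in all, with a median of -0.12. The flap nuclease gene Fen1 (-0.41 ± 0.06), the abasic site nuclease gene Apex1 (-0.44 ± 0.06) and the uracil glycosylase gene Ung (-0.77 ± 0.09) fell, and Mlh3 (0.39 ± 0.11) and Polb (0.25 ± 0.10) rose. The number lower was 7 without control library 3, and 7 without control libraries 1 and 3. The number higher was 1 without control library 2 or inhibitor library 2 or 3, and neither passed without inhibitor library 1.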
